A study of Arvicanthis niloticus with 28 samples.

Results

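A set of 10 genes that mark arterial or venous endothelium, or that guide vessels, was followed across the retinal vasculature of 28 Nile rats. They were taken by name from the deposited tables, where 10 of 10 were present among 18970 genes, and were grouped by their known roles. The 6 arterial genes were Efnb2, Efna1, Unc5b, Gja4, Gja5 and Sema3g, the 2 venous genes were Ephb4 and Nr2f2, and the 2 guidance receptors without a side were Plxnd1 and Robo4. The roles are known mainly from mouse.

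Arteries and veins of the retina are lined by endothelial cells with different gene programs. Notch signaling in arterial endothelium maintains the ligand ephrin-B2, encoded by Efnb2, while venous endothelium carries its receptor EphB4, encoded by Ephb4, and the transcription factor COUP-TFII, encoded by Nr2f2, which represses Notch signaling. Contact between ephrin-B2 and EphB4 keeps the arterial and venous territories apart, and semaphorin, netrin and Slit receptors on the same cells steer vessel growth.

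The Nile rat (Arvicanthis niloticus) is a diurnal rodent that is prone to diabetes on standard chow. Each library held RNA of the whole retinal vasculature of 1 untreated wild-type rat, prepared by washing off the neurons after osmotic lysis, and the same rats had acellular capillaries counted. The pre-dropout group held 4 male rats with 17.1 to 17.9 acellular capillaries per mm2, and the normal group held 24 rats, 8 males and 16 females, with 5.90 to 14.5 per mm2. Random blood glucose was over 200 mg/dL in 2 pre-dropout rats and 3 normal rats, with a range of 52 to 443 mg/dL over the 28 rats. The study fed its rats either a high-fiber or a high-caloric diet. Ages and the diet of each rat were not given in the labels used here, so neither could enter the comparisons. No female was pre-dropout, so that in the whole set sex and density group are partly confounded.

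The libraries held 153111 to 10029207 expected counts and 7502 to 16139 genes with at least 1 count, and 2 libraries (T410F and T448M) held under 1000000. Marker levels are given as medians of TPM (a level scaled by transcript length and to a fixed total in each library) over the 28 libraries. The endothelial markers Pecam1, Cdh5 and Cldn5 stood at 502, 627 and 27392 TPM. The pericyte markers Rgs5 and Pdgfrb stood at 6217 and 103 TPM, and the smooth muscle markers Acta2 and Myh11 at 385 and 98.3 TPM. The rod marker Sag stood at 77.6 TPM, between 3.36 and 880 TPM. Markers of one cell type thus differed widely in level. No marker of the 7 cell type lists was at 0 in every library of a group, although the summed microglia markers were at 0 CPM (counts scaled to the size of the library) in T353M and T410F. Because these are bulk libraries, fewer cells of a type and less RNA per cell cannot be told apart.

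The arterial gene Sema3g, a secreted class 3 semaphorin, was the most abundant of the 10 by median, and Gja5, the arterial gap junction protein connexin 40, the least. Median TPM over the 28 rats was 209.8 for Sema3g, 168 for Nr2f2, 161 for Gja4 (connexin 37), 72.7 for Efna1 (ephrin-A1), 54.1 for Robo4, 49.4 for Efnb2, 34.9 for Plxnd1, 34.8 for Ephb4, 6.99 for Unc5b and 0 for Gja5. Unc5b is a netrin receptor of arterial and tip cells, Robo4 an endothelial Roundabout receptor, and Plxnd1 the endothelial receptor of class 3 semaphorins. Neither side stood above the other as a block, since the venous gene Nr2f2 ranked second and the venous gene Ephb4 eighth.

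The order was taken from the same TPM values that were then tested, so the pairs and their direction were not named beforehand. Of the 9 neighbouring pairs in this order, 2 differed beyond their spread over rats. Gja4 stood above Efna1 in 28 of 28 rats and Ephb4 above Unc5b in 27 of 28 (permutation of signs within rats on log2(TPM + 1), two-sided, p = 1e-05 each, the smallest these permutations can give, adjusted p = 4.5e-05). Sema3g was above Nr2f2 in 16 of 28 rats (permutation adjusted p = 0.0608), and Nr2f2 was above Gja4 in 14 of 28 although its mean on the log2 scale was the lower one (permutation adjusted p = 0.0896). The other 5 neighbouring pairs had adjusted p between 0.269 and 0.985 in the same permutation test. Thus no order was resolved between the neighbours Sema3g, Nr2f2 and Gja4, nor between the neighbours in the run from Efna1 to Ephb4. The order and its p-values hold for TPM, which rests on the transcript lengths implied by the tables. By CPM the medians were 60.4 for Gja4 and 43.5 for Efna1, and 94.8 for Ephb4 and 29.4 for Unc5b. The 28 of 28 was not kept by CPM, as T389M had 62.3 CPM of Gja4 and 68.6 of Efna1.

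**Figure D1:**
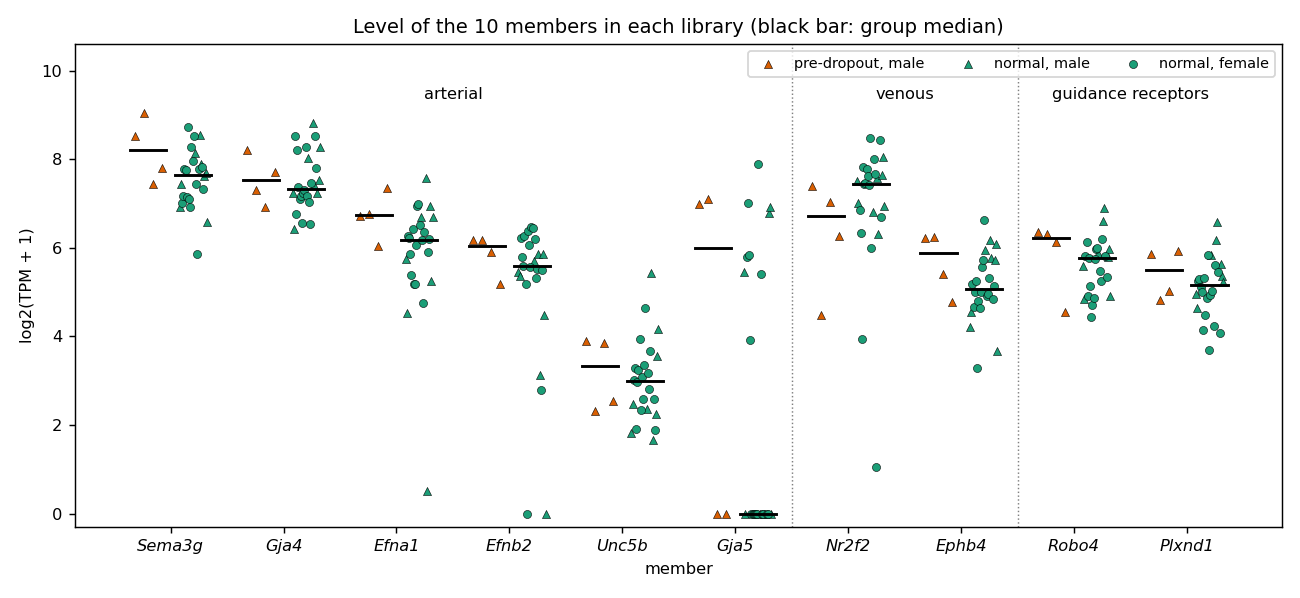
Level of the 10 members in each library, as log2(TPM + 1), with the 4 pre-dropout rats left of the 24 normal rats, triangles for males, circles for females and a black bar at the group median. The pre-dropout rats lie inside the normal range for 9 members, and Gja5 is at 0 in 17 of 28 libraries.

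Several members were missing from single libraries in which a count was due. Efnb2 had 0 counts in the normal rats T399F and T448M, where its median CPM over all rats would have given 138 and 36.5 counts. Efna1 had 2 counts in the normal male T425M, against 327 at its median. Nr2f2 had 4 counts in the normal female T420F, against 571 at its median, and 22 in the normal female T396F, against 193. The floor, taken as 3 counts of a library's total and covering counting error only, was between 0.38 and 3.21 CPM in the 5 libraries, and the median CPM of the 3 genes over all rats was 37.2, 43.5 and 85.2. All 5 libraries were from normal rats. They were taken as those with a member under 10% of the product of its median CPM and the library's total, a rule that leaves out the scaling factor of the library. By CPM itself T396F had Nr2f2 at 11.4% of its median, and the normal female T430F, which is not among the 5, had Efnb2 at 10.2% of its median with 34 counts.

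Such gaps were frequent in the tables. Among 7447 genes with a median of 10 to 1000 TPM, 49.8% were at 0 in at least 1 library and 33.2% in 2 or more. The share of these genes at 0 was 24.4% in T448M, 16.01% in T399F, 13.9% in T420F and 13.5% in T425M, the 4 highest of the 28 libraries, 4.07% in T396F, and 0.0269% in the lowest. Without the 5 libraries no member was called in any of the 4 comparisons given next.

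Gja5 had counts in 11 of 28 libraries. In the pre-dropout rats it had 35 counts in T353M, 50 in T389M and 0 in T391M and T407M, and in the normal rats it had counts in 9 of 24. The transcript length implied by the tables was short for this gene, so that 1 count of Gja5 was worth 4.58 times the TPM of 1 count of Gja4, and its TPM values of up to 235 rest on few counts. The groups overlapped, and the place of Gja5 as the lowest of the 10 rests on a median of 0.

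Pre-dropout and normal rats were then compared. The study took the density of the pre-dropout group as a state just before early capillary dropout. Both groups had acellular capillaries, and the contrast is between separate rats, none followed over time. The arterial genes Sema3g, Efna1 and Efnb2 and the venous gene Ephb4 had higher means in pre-dropout rats, and the venous gene Nr2f2 a lower one, but none of the 10 members passed the test of edgeR's quasi-likelihood fit (adjusted p = 0.9999 for each). With a call defined as an adjusted p under 0.05 and a change over 2-fold, the same fit called 0 of 13800 genes (0.0%), and 394 had an unadjusted p under 0.05, of which 27 were higher (0.196%) and 367 lower (2.66%) in pre-dropout rats. DESeq2 called 5 genes and limma-voom 4, and neither called a member. Of the members, 7 of 10 had a fold change above 0, against 41.1% of all genes tested, whose median log2 fold change was -0.13.

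Sema3g came nearest to a difference. Its level was 366 TPM in T353M, 526 in T389M, 172 in T391M and 221 in T407M, against a lowest value of 57.4, a median of 200.1 and a highest of 422 TPM in the 24 normal rats. The rat T389M lay above every normal rat and the other 3 pre-dropout rats lay inside the normal range. The log2 fold change was 0.67 (SE 0.34, 95% interval -0.0013 to 1.34, unadjusted p = 0.0574 in edgeR). Without T389M it was 0.26, and without T391M 0.91.

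Efna1, a ligand of EphA receptors that tumor necrosis factor induces in endothelium, had 104 TPM in T353M, 108 in T389M, 65.2 in T391M and 163 in T407M. In the normal rats its level was 0.419 TPM at the lowest, 71.7 at the median and 191 at the highest, so that the groups overlapped. Its log2 fold change was 0.66 (SE 0.59). The erythrocyte markers also had a higher mean in pre-dropout rats. Their mean log2 CPM was 5.74 ± 0.766 in pre-dropout rats and 4.35 ± 1.05 in normal rats (SD, n = 4 and 24, 4 of 6 listed genes in the table). Their summed level was 478 to 3474 CPM in pre-dropout rats and 25.9 to 4408 CPM in normal rats. In edgeR 3 of 3 tested were above 0 in this contrast (median log2 0.75). For normal males over females 3 of 3 were above 0 as well (median 0.75). On the density slope, fitted with sex, 0 of 3 were (median -0.33). The part of sex in their values, and their part in the value of Efna1, were not tested.

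For the ligand and receptor of the arterial and venous border, both fold changes were above 0 and neither passed the test. Efnb2 had 70.9 TPM in T353M, 71.2 in T389M, 58.8 in T391M and 35.1 in T407M, against 0, 46.9 and 87.7 TPM at the lowest, the median and the highest of the normal rats. Ephb4 had 73.8 TPM in T353M, 75.1 in T389M, 41.4 in T391M and 26.5 in T407M, against 8.82, 32.7 and 98.0 TPM in the normal rats. For both genes all 4 pre-dropout rats were within the range of the normal rats and 3 of 4 exceeded their median, with T407M the lowest of the 4. The log2 fold change was 0.35 (SE 0.74, 95% interval -1.10 to 1.801) for Efnb2 and 0.49 (SE 0.40, 95% interval -0.30 to 1.29) for Ephb4. Among males only the value was 0.63 for Efnb2 and 0.18 for Ephb4, and without T389M it was 0.22 and 0.23. Without the 5 libraries with a member near 0 it was 0.20 for Efnb2 and 0.47 for Ephb4.

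Nr2f2 was the member with the most negative value. It had 168 TPM in T353M, 21.4 in T389M, 131 in T391M and 76.2 in T407M, against 1.06, 173 and 356 TPM at the lowest, the median and the highest of the normal rats. By CPM, each of the 4 pre-dropout rats was below the median of the normal rats and inside their range. The log2 fold change was -0.72 (SE 0.59, 95% interval -1.89 to 0.44), -0.39 without T389M and -0.80 among males only. Without the 5 libraries with a member near 0 it was -0.88 (unadjusted p = 0.0426, adjusted p = 1 in edgeR). The 2 venous genes thus had values of opposite sign, and the rat T389M had the highest Ephb4 and the lowest Nr2f2 of the 4.

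The remaining members were closer to 0 or less precise. Gja4 averaged 195 ± 75.4 TPM in pre-dropout rats and 200.3 ± 99.6 TPM in normal rats (SD, n = 4 and 24), with a log2 fold change of -0.07 (SE 0.44). Unc5b averaged 9.02 ± 5.34 TPM in pre-dropout rats and 9.09 ± 8.67 TPM in normal rats, with a log2 fold change of -0.05 (SE 0.62). Gja5 had a fitted log2 fold change of 1.10 with an SE of 1.76, from counts in 2 of 4 pre-dropout libraries and 9 of 24 normal libraries. Neither gap junction gene nor the netrin receptor showed a difference larger than the spread between rats.

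Plxnd1 averaged 43.9 ± 16.8 TPM in pre-dropout rats and 37.5 ± 18.6 TPM in normal rats, with a log2 fold change of 0.23 (SE 0.40). Robo4 averaged 62.7 ± 27.4 TPM in pre-dropout rats and 51.3 ± 22.9 TPM in normal rats, with a log2 fold change of 0.27 (SE 0.37). Both values turned negative once sex was taken into account. With sex as a covariate they were -0.27 for Plxnd1 and -0.08 for Robo4, and among males only, with 4 pre-dropout and 8 normal rats, they were -0.32 and -0.12.

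Sex itself was compared within the normal rats, since all pre-dropout rats were male. Both guidance receptors had higher means in males. Plxnd1 was at 23.95 TPM at the lowest, 44.4 at the median and 94.0 at the highest in the 8 normal males, against 11.8, 31.5 and 55.9 TPM in the 16 normal females. Robo4 was at 27.8, 56.4 and 118 TPM in the normal males, against 20.7, 48.3 and 72.6 TPM in the normal females. The sexes overlapped for both genes.

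The log2 fold change of males over females was 0.95 for Plxnd1 (SE 0.32, unadjusted p = 0.0052, adjusted p = 0.830 in edgeR) and 0.69 for Robo4 (SE 0.30, unadjusted p = 0.0275, adjusted p = 0.995 in edgeR). Neither was called, among 3 of 12162 genes called (0.0247%), and 2.06% of genes were higher and 2.32% lower in males at an unadjusted p under 0.05. A value above 0 was found for 9 of 10 members, against 47.7% of all genes. Limma-voom called 725 genes in this contrast, against 3 in edgeR. In limma-voom the log2 fold change of Plxnd1 was 0.84 with an adjusted p of 0.0394, under the 2-fold limit of a call. Over the alternatives the adjusted p of Plxnd1 ranged from 0.0394 to 1. The endothelial markers were above 0 for 10 of 10 genes and the pericyte markers for 8 of 8 in the same contrast, with medians of 0.36 and 0.51 on the log2 scale against -0.04 for all genes, and their part in the values of Plxnd1 and Robo4 was not tested. The other 8 members had unadjusted p between 0.109 and 0.810 in edgeR, with Efnb2 alone below 0 at -0.33 (SE 0.67).

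**Figure D2:**
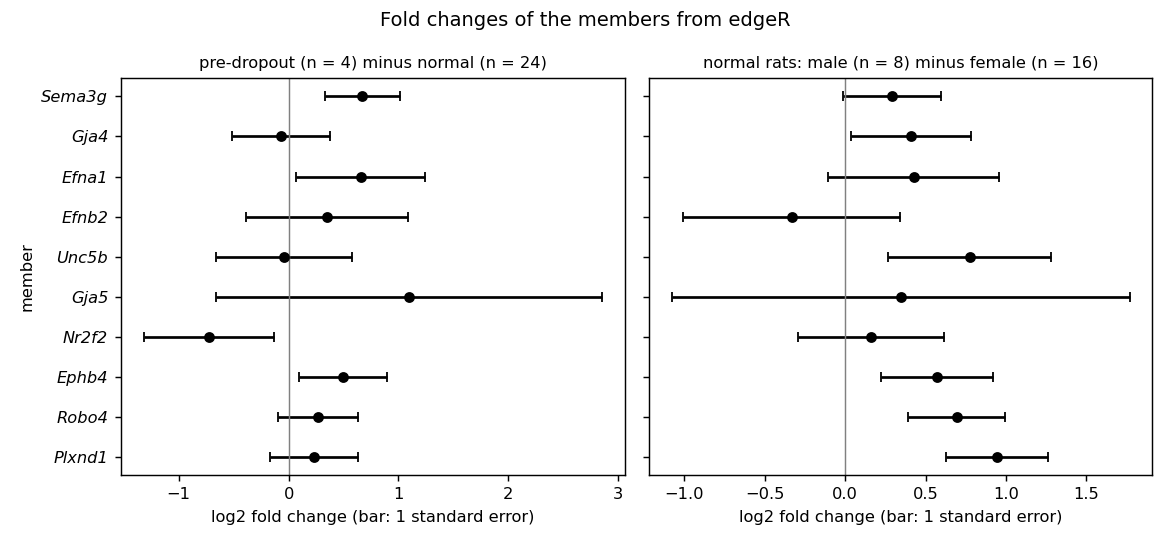
Log2 fold changes of the 10 members from edgeR with 1 standard error on each side, for pre-dropout over normal rats (left) and for males over females within the normal rats (right). On the left no member is called, and on the right Plxnd1 at 0.95 and Robo4 at 0.69 lie farthest from 0 in units of their standard error.

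Acellular capillary density and blood glucose gave no slope for a member that passed the test, with sex as a covariate. The density fit called 0 of 13406 genes (0.0%) with 334 at an unadjusted p under 0.05, 1.72% of the genes tested with a positive and 0.768% with a negative slope, and DESeq2 called 1. The glucose fit called 0 of 13800 genes (0.0%) with 525 at an unadjusted p under 0.05, 2.27% of the genes tested with a positive and 1.54% with a negative slope, and DESeq2 called 21. No member was among the genes that either tool called.

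On density, the steepest slope relative to its error was that of Plxnd1, with -0.25 on the log2 scale per 5 acellular capillaries per mm2 (SE 0.20, unadjusted p = 0.213 in edgeR). The other arterial and venous members lay between -0.18 for Gja4 (SE 0.23) and 0.89 for Gja5 (SE 1.32), with Efnb2 at 0.18 (SE 0.42), or -0.10 without the 5 libraries with a member near 0, and Ephb4 at -0.06 (SE 0.23). Of the 10 members 3 had a slope above 0, against 55.6% of all genes.

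On glucose, Unc5b had the steepest slope relative to its error, with -0.30 on the log2 scale per 100 mg/dL (SE 0.20, unadjusted p = 0.149 in edgeR). Unc5b was at 3.99 TPM in T389M and 13.3 in T391M, the pre-dropout rats over 200 mg/dL, and at 4.59 in T370M, 7.09 in T392F and 3.78 in T446M, the normal rats over 200 mg/dL, against a median of 6.99 TPM over all rats. Of these 5 rats 3 were below that median. Efnb2 had a slope of 0.24 (SE 0.24), Ephb4 of 0.10 (SE 0.13) and Nr2f2 of -0.16 (SE 0.19). Of the 10 members 6 had a slope above 0, against 52.4% of all genes.

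The ratio of Efnb2 to Ephb4 within a library, in which a scaling factor of the library cancels apart from the pseudocount, was compared next. As log2 of the ratio of TPM + 1 it was -0.06 in T353M, -0.08 in T389M, 0.50 in T391M and 0.39 in T407M, and in the normal rats it ran from -4.79 in T399F to 1.89 in T398F. The mean was 0.19 ± 0.30 in pre-dropout rats and -0.08 ± 1.70 in normal rats (SD, n = 4 and 24), a difference of 0.27 (exact permutation test over 20475 splits, two-sided, p = 0.795). The 2 lowest normal values were those of the libraries without an Efnb2 count, and without these 2 libraries the difference was -0.11 (exact permutation p = 0.866). Without the 5 libraries with a member near 0 it was -0.25 (exact permutation p = 0.640). Among males only, with a mean of 0.19 ± 0.30 in pre-dropout rats and -0.79 ± 1.71 in normal rats (SD, n = 4 and 8), the difference was 0.97 (exact permutation p = 0.317), and 0.56 without T448M, the male library lacking Efnb2 (exact permutation p = 0.470). With 0.1 in place of 1 added to the TPM it was 0.54 (exact permutation p = 0.733). The size and the sign of this difference thus changed with the libraries used, and it passed the test in none of these settings.

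The same ratio had a Pearson's r of 0.096 with density over 28 rats (permutation p = 0.631, rho = 0.0016, p = 0.995) and of 0.134 with glucose (permutation p = 0.518, rho = -0.091, p = 0.642). Without the 2 rats farthest from the median of density or glucose, r was 0.092 and 0.193. Within the 12 males r with density was 0.529 (permutation p = 0.0758), where 4 of the 12 rats form the pre-dropout group, and 0.388 without T448M (permutation p = 0.244). Over the 23 rats without a member near 0, r was -0.129 with density and -0.041 with glucose (permutation p = 0.563 and 0.850).

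Whether arterial and venous members vary apart was asked of their levels over the 28 rats. The correlations that passed the test did not follow the arterial and venous line. Of 45 pairs of members 2 were correlated (log2 CPM, Pearson's r, 100000 permutations, adjusted over the 45 pairs), and both included the venous receptor Ephb4. Ephb4 varied with the arterial gene Sema3g, with r = 0.657 (permutation p = 0.00017, adjusted p = 0.00495, rho = 0.732), and with the guidance receptor Robo4, with r = 0.661 (permutation p = 0.00022, adjusted p = 0.00495, rho = 0.667). Without the 2 rats farthest from the median of the first gene of each pair, r was 0.685 and 0.676.

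For comparison, 1.28% of 32453596 pairs among the 8057 genes with at least 10 counts in 20 libraries reached an r of this size in either direction, and the median r of those pairs was 0.036. Among the 8056 of these genes other than Ephb4, 0.745% had a higher r with Ephb4 than Sema3g had, and 0.621% a higher r than Robo4 had.

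The other pairs were weak on each side. The 15 pairs of arterial members centred on a median r of 0.178 and ran from -0.186 to 0.401, and 0 of them were called. The 12 pairs of an arterial with a venous member centred on 0.022 and ran from -0.266 to 0.657, and 1 was called. The single venous pair, Ephb4 with Nr2f2, had r = -0.198 (permutation p = 0.308, adjusted p = 0.577). Nr2f2 had a negative r with each of the other 9 members, between -0.266 and -0.038, and none was called. This shared sign was lost under other settings. By rho Efnb2 stood at 0.046 and Unc5b at 0.032, among males Unc5b at 0.312, Gja4 at 0.141, Plxnd1 at 0.120 and Efna1 at 0.087, and with neural markers taken out Gja4 at 0.282 and Unc5b at 0.105. Without the 5 libraries with a member near 0 Gja4 stood at 0.165.

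Efnb2 and Ephb4, ligand and receptor, had r = 0.369 (permutation p = 0.0532, adjusted p = 0.199, rho = 0.409), and r = 0.152 without the 2 rats farthest from the median of Efnb2. When the mean of the endothelial markers was taken out of each gene, r of this pair was 0.663 (permutation p = 0.0004, adjusted p = 0.018), the only pair then called. With library total and genes detected taken out r was 0.612 (permutation p = 0.00111, adjusted p = 0.0125), also called, and with neural markers taken out it was 0.558, not called. It was 0.598 in males, 0.239 in females, 0.336 in normal rats, 0.169 without the 2 libraries under 1000000 counts and 0.291 without the 5 libraries with a member near 0, and was called in none of these. The 2 rats farthest from the median of Efnb2 were T399F and T448M, the libraries without an Efnb2 count, and both were among the 28 libraries of the residual values.

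**Figure D3:**
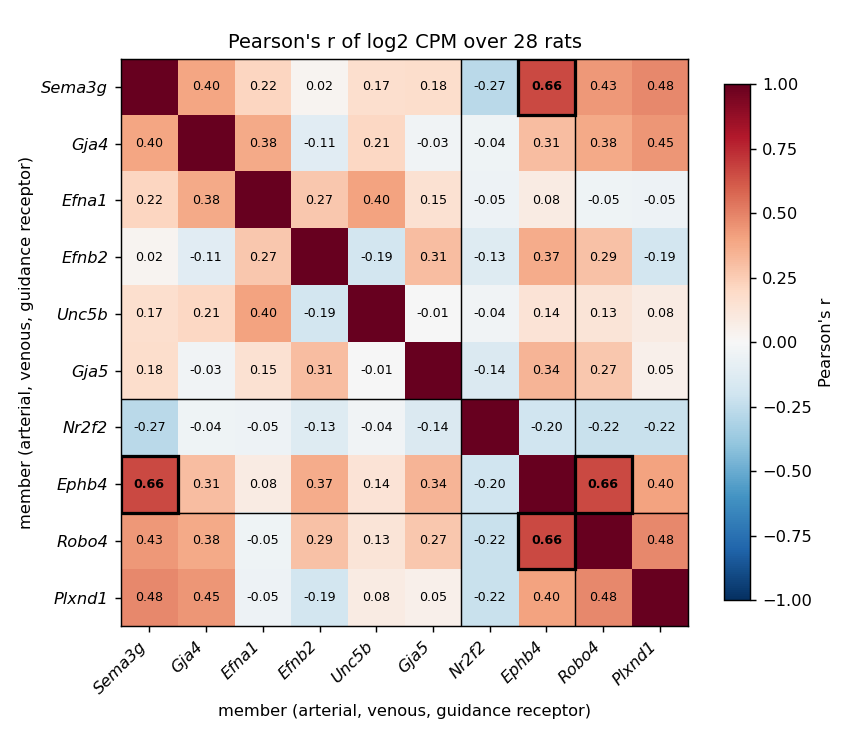
Pearson's r of log2 CPM over 28 rats for each pair of members, ordered as arterial, venous and guidance receptor, with the pairs at an adjusted p under 0.05 framed. The framed pairs are Sema3g with Ephb4 and Ephb4 with Robo4, both at 0.66, and the row of Nr2f2 is negative here, between -0.266 and -0.038, with none called and a sign that other settings change.

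**Figure D4:**
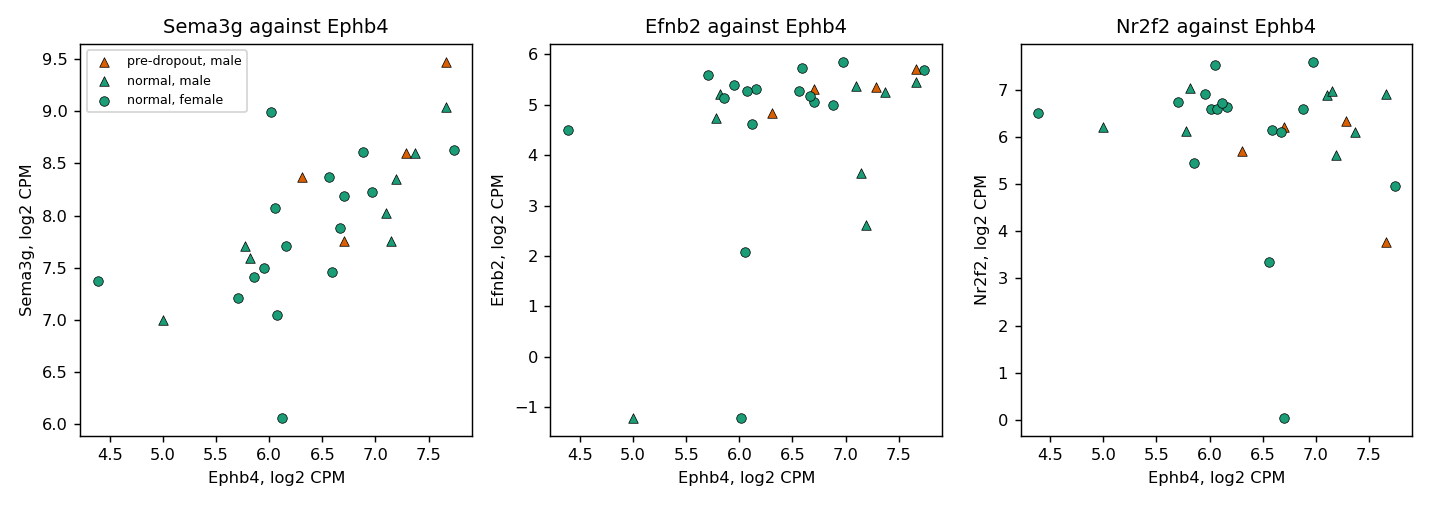
Log2 CPM of Sema3g, Efnb2 and Nr2f2 against that of Ephb4, with 1 point per rat, triangles for males and circles for females. Sema3g is higher where Ephb4 is higher, while the lowest points of Efnb2 are the 2 libraries without an Efnb2 count and the lowest point of Nr2f2 is T420F with 4 counts.

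The pairs were recomputed without the 5 libraries in which Efnb2, Efna1 or Nr2f2 was nearly absent, a choice made after the values were seen. Over the remaining 23 rats 10 pairs were called, 3 among arterial members, 1 between an arterial and a venous member and 6 with a guidance receptor. The libraries were left out by the values of the same members that were then correlated. No share of all gene pairs was computed over the 23 rats or over the other reduced sets given below. Whether 10 pairs is more than among other genes was therefore not tested. The arterial pairs were Efna1 with Sema3g (r = 0.684), Efna1 with Gja4 (r = 0.667) and Gja4 with Sema3g (r = 0.532), and their permutation p-values adjusted over the 45 pairs were 0.00615, 0.00664 and 0.0466. Ephb4 had r = 0.696 with Sema3g and r = 0.668 with Robo4 (permutation adjusted p = 0.00615 each). The median r was then 0.219 among arterial pairs and 0.228 between arterial and venous members. The correlation of Ephb4 with Nr2f2 was -0.300. The count depended on which libraries were left out. It was 8 over 24 rats without the 4 libraries in which a member stood under 0.1 of its median CPM, and 7 over 22 rats without the 6 in which a member stood under 0.125 of it. Gja4 with Sema3g was called in the first of these and not in the second, while Efna1 with Gja4, Efna1 with Sema3g, Sema3g with Ephb4 and Ephb4 with Robo4 were called in both.

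Within one sex the pairs were less certain. In the 12 males Sema3g and Ephb4 had r = 0.830 (permutation p = 0.00061, adjusted p = 0.0274), and Ephb4 and Robo4 had r = 0.743 (permutation adjusted p = 0.138). In the 16 females the values were 0.470 and 0.493 (permutation adjusted p = 0.477 each). In the 24 normal rats they were 0.614 and 0.635 (permutation adjusted p = 0.0225 each).

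Of the 10 members 5 varied with the endothelial markers, by a comparison with the marker lists that was added after the values were seen. The share of all genes with such a relation to these or the other marker lists was not computed. Whether 5 of 10 is more than among other genes was therefore not tested. With the mean log2 CPM of 10 endothelial markers, r was 0.775 for Sema3g, 0.770 for Ephb4, 0.730 for Robo4, 0.628 for Plxnd1 and 0.525 for Gja4, with permutation p-values adjusted over 70 relations of 0.00035, 0.00035, 0.0007, 0.0035 and 0.0229. Without the 2 rats farthest from the median of the markers r was between 0.385 for Gja4 and 0.803 for Sema3g. With the endothelial markers taken out, the r of Sema3g with Ephb4 was 0.149 and that of Ephb4 with Robo4 was 0.227.

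Efnb2, Efna1, Unc5b, Gja5 and Nr2f2 had r between -0.259 and 0.293 with the same markers, and none passed. In rank correlation Efna1 had a rho of 0.419 with them (permutation p = 0.0277, not adjusted). For Efnb2 and Nr2f2, known markers of arterial and venous endothelium, r was -0.069 and -0.259. Over the 23 rats without a member near 0, r with the endothelial markers was 0.682 for Efna1, 0.047 for Efnb2 and -0.260 for Nr2f2, values for which no test was run.

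Gja4 also varied with the 8 pericyte markers (r = 0.613, permutation adjusted p = 0.0049), while no other member did. In mouse, connexin 37 is found in arterial endothelium and in mural cells. Gja4, Plxnd1, Robo4 and Ephb4 were lower where the 10 markers of neural retina were higher, with r of -0.668, -0.626, -0.553 and -0.466 (permutation adjusted p = 0.0021, 0.0035, 0.0149 and 0.0457). The mean of these neural markers was 5.05 ± 0.70 log2 CPM in pre-dropout rats and 5.01 ± 1.65 in normal rats (SD, n = 4 and 24), and their summed level was 306 to 938 CPM in pre-dropout rats and 215 to 4220 CPM in normal rats. With the neural markers taken out of each gene, r was 0.582 for Sema3g with Ephb4 and 0.547 for Ephb4 with Robo4 (permutation adjusted p = 0.0557 each).

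The glial and microglial markers gave negative relations for some of the same members. With the 6 glial markers r was -0.508 for Gja4, -0.486 for Robo4 and -0.475 for Ephb4 (permutation adjusted p = 0.0319, 0.0391 and 0.0411). With the 6 microglia markers, whose summed level was 0 to 12.1 CPM in pre-dropout rats and 0 to 58.2 CPM in normal rats, r was -0.650 for Gja4, -0.578 for Sema3g, -0.564 for Plxnd1 and -0.479 for Robo4 (permutation adjusted p = 0.0021, 0.00817, 0.0127 and 0.0391). These microglia values rest on few counts.

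Efna1 was the only member that varied with the erythrocyte markers, with r = 0.545 (permutation adjusted p = 0.0115, rho = 0.617), and 0.522 without the 2 rats farthest from the median of the markers. No member passed with the 8 smooth muscle markers, Nr2f2 having the highest rho, 0.513 (permutation p = 0.00567, not adjusted), beside an r of 0.143.

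**Figure D5:**
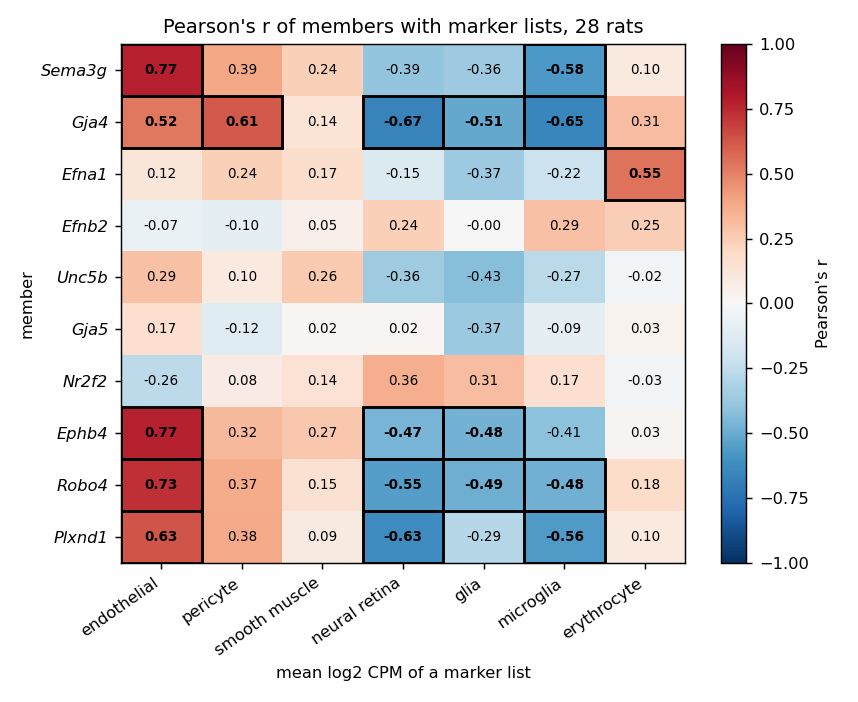
Pearson's r over 28 rats of each member with the mean log2 CPM of 7 marker lists, with relations at an adjusted p under 0.05 over 70 relations framed. Sema3g, Ephb4, Robo4, Plxnd1 and Gja4 are framed for endothelial markers, and Efnb2, Unc5b, Gja5 and Nr2f2 for none.

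The genes whose levels were most like each member differed in kind. For Sema3g the 3 highest correlations among 8056 genes were Plat, which encodes tissue plasminogen activator, Wfdc1 and Adgrf5, an endothelial adhesion receptor, with r of 0.836, 0.832 and 0.828. For Ephb4 they were Abcb1a, the drug efflux pump of the blood-retina barrier, Rgs3 and Podxl, with r of 0.788, 0.787 and 0.782. For Robo4 they were March6, Net1 and Hpcal1 at 0.781, 0.772 and 0.762, and for Plxnd1 Mtmr2, Pgrmc2 and Tril at 0.789, 0.783 and 0.781.

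For Gja4 they were Nhp2l1, Anxa5 and Cnbp at 0.781, 0.770 and 0.765, for Unc5b Ap2m1, Copb2 and Pdzd4 at 0.650, 0.622 and 0.570, and for Gja5 Hid1, Fam136a and Htatip2 at 0.557, 0.538 and 0.532. For the members nearly absent from single libraries rho was lower than r. The genes most like Efnb2 were Fes, Mus81 and Mapre3, with r of 0.905, 0.905 and 0.897 and rho of 0.482, 0.599 and 0.419. Those most like Nr2f2 were Tm9sf4, Cldn12 and Nfyb, with r of 0.825, 0.821 and 0.806 and rho of 0.303, 0.374 and 0.311. Those most like Efna1 were Tmem109, Snrpb2 and Ric8a, with r of 0.893, 0.885 and 0.883 and rho of 0.751, 0.573 and 0.679.

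Other genes of the arterial and venous programs showed no call in any of the 4 comparisons. Of 22 further arterial genes tested, 17 had a fold change above 0 in pre-dropout over normal rats, with a median log2 of 0.18. Of 10 further venous genes 7 did, with a median of 0.22, and of 10 capillary genes 10 did, with a median of 0.22, beside the 41.1% above 0 and the median of -0.13 over all genes. The endothelial markers had 9 of 10 values above 0 and the pericyte markers 0 of 8 in this contrast, and their part in these counts was not tested. All pre-dropout rats were male and this fit had no sex term. For males over females in the normal rats, 16 of 22 arterial, 6 of 9 venous and 9 of 10 capillary genes were above 0. Their medians were 0.22, 0.46 and 0.45, against -0.04 for all genes. On the density slope, fitted with sex, 10 of 22, 2 of 10 and 4 of 10 were above 0, against 55.6% of all genes. The part of sex in the pre-dropout counts was not tested.

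Named by the smallest p, the arterial genes were Bmx, an endothelial kinase, with 111 ± 37.4 CPM in pre-dropout rats and 68.2 ± 42.4 in normal rats, and Nos3, endothelial nitric oxide synthase, with 309 ± 33.0 CPM in pre-dropout rats and 234 ± 102 in normal rats (SD, n = 4 and 24). The venous genes were Vcam1, a leukocyte adhesion molecule, at a log2 fold change of 0.63 (SE 0.39), and Ackr1, a chemokine receptor of venules, at -2.40 (SE 1.48). The capillary genes were Slc16a1, the lactate transporter of the barrier, at 0.85 (SE 0.28, unadjusted p = 0.00475, adjusted p = 0.9999 in edgeR), and Tfrc, the transferrin receptor, at 0.51 (SE 0.32).

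The relatives of the members mostly lay on the other side of 0. Of 18 other ephrins and Eph receptors tested, 4 were above 0, with a median log2 fold change of -0.77 in pre-dropout over normal rats. Of 26 other netrin, Slit and semaphorin guidance genes 5 were above 0, with a median of -0.51, and of 5 other connexins 1 was, with a median of -0.64. None was called. Epha8 was at 5.95 ± 5.30 CPM in pre-dropout rats and 30.2 ± 34.3 in normal rats. Plxna3 was at 1.75 ± 2.48 CPM in pre-dropout rats and 11.6 ± 11.7 in normal rats, and Robo1 was at 0.266 ± 0.246 CPM in pre-dropout rats and 3.01 ± 4.26 in normal rats (SD, n = 4 and 24). Gjc1 was at 43.3 ± 30.1 CPM in pre-dropout rats and 59.9 ± 36.8 in normal rats. Epha3 had 0 counts in the 4 pre-dropout libraries and 2.80 ± 4.09 CPM in normal rats. Many genes of these families are expressed by retinal neurons. Of 10 neural markers 2 were above 0 in the same contrast, with a median of -0.80. The mean log2 CPM of these markers was 5.05 ± 0.70 in pre-dropout rats and 5.01 ± 1.65 in normal rats. Their summed level reached 938 CPM in pre-dropout rats and 4220 CPM in normal rats. On the density slope 10 of 10 neural markers were above 0. The part of the neural markers in these counts was not tested. For normal males over females, 3 of 18 ephrins and Eph receptors, 9 of 23 guidance genes and 1 of 4 connexins were above 0. On the density slope, fitted with sex, 7 of 18, 17 of 26 and 2 of 5 were above 0. The part of sex was not tested either.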

How the data were processed

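The deposited tables hold expected counts, estimated by the authors per gene and not scaled between libraries, and TPM, computed by the authors per transcript length and scaled to a common total in each library. Symbols and Ensembl identifiers in the tables are those of mouse genes, as in the comparative RNA-seq pipeline described for these libraries. Whether these are its values is not stated in the sources used here, and no coordinates are given. Symbols of 10 of 10 members stand in the RefSeq annotation of the Nile rat.

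Counts were rounded to whole numbers and 1196 genes then had none. Groups followed the density label. The quasi-likelihood test of edgeR 4.0.16 under R 4.3.3 (TMM scaling, filterByExpr with a minimum count of 10, Benjamini-Hochberg adjustment over all genes) gave fold changes, called at an adjusted p under 0.05 and over 2-fold, and slopes, called at an adjusted p under 0.05. All 10 members passed the filter, Gja5 with counts in 11 libraries. EBSeq, which the study used, was not installed. Each library came from a separate rat. Correlations used log2 CPM with a prior count of 2 and 100000 permutations in Python 3.11.15 with NumPy 2.4.6 and SciPy 1.17.1. The floor is 3 counts of a library's total, 0.299 to 19.6 CPM, for counting error only.

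Named genes are the members, up to 2 genes of each companion list, ranked by p for pre-dropout over normal, the 3 genes most correlated with each member, and 8 cell type markers. The values of 1 gene that this rule names are not reported here. Members and lists were chosen with earlier results of these data known. The marker comparison, the endothelial residuals and the omissions of libraries in which a member was nearly absent, by 3 rules, were added after values were seen. Alternatives were other scalings, filters, tests (DESeq2 1.42.0, limma 3.58.1), pseudocounts of 1 and 0.1 on TPM, covariates, subsets of rats and rats left out in turn.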

Additional observations from a re-analysis of the deposited data

How the results depend on the processing

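No paired analysis was possible because each rat gave 1 library and the replicate numbers only name rats within a group. No member was called in any of the 4 comparisons under any alternative run. The causes of the changes below were not tested. Genes called for pre-dropout over normal rats numbered 0, and 72 without a filter on low counts, 5 in DESeq2 and 4 in limma-voom. For the density slope they numbered 0, and 121 without a filter, 1 in DESeq2 and 1 without the 5 libraries with a member near 0, and for the glucose slope 0, and 152 without a filter, 21 in DESeq2 and 2 in normal rats only. For males over females they numbered 3, and 1 with at least 1 CPM in 14 libraries, 37 in DESeq2, 725 in limma-voom, 6 in limma on log2(TPM + 1) and 5 on log2(TPM + 0.1). The count for pre-dropout over normal rats stayed at 0 when any single one of the 4 pre-dropout rats was omitted. Single normal rats were not omitted from that contrast. The density and glucose counts stayed at 0 when any single one of the 28 rats was omitted.

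Correlated pairs of members numbered 2, and 4 in residuals on library total and genes detected, 0 in residuals on neural markers, 0 in females, 1 in males, 10 without the 5 libraries with a member near 0, 8 and 7 without the 4 and 6 libraries with a member under 0.1 and 0.125 of its median CPM, 6 without the 2 libraries lacking an Efnb2 count, 1 in residuals on endothelial markers and 4 by Spearman's rho. Without those 2 libraries the difference of the Efnb2 to Ephb4 ratio was -0.11 and its r with density -0.039. Without the 5 libraries with a member near 0 these were -0.25 and -0.129, and r with glucose was -0.041. Among males only the difference was 0.97, and 0.56 without the male library lacking Efnb2. With each pre-dropout rat left out the difference was 0.17 to 0.36.

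Of 1136 values of single members under an alternative, 1048 kept their direction and 88 changed sign, none of them past the test's threshold. In pre-dropout over normal rats, limma-voom gave 0.52 for Unc5b and 0.34 for Gja4, limma on log2(TPM + 1) 0.14 and 0.035, and limma on log2(TPM + 0.1) 0.18 and 0.035. Unc5b was 0.056 without libraries under 1000000 counts, 0.30 with glucose as a covariate and 0.019 without the libraries lacking Efnb2. Plxnd1 and Robo4 were -0.27 and -0.083 with sex as a covariate and -0.32 and -0.12 in males only. With each pre-dropout rat left out, Unc5b ranged from -0.33 to 0.16, Gja4 from -0.19 to 0.11 and Plxnd1 from -0.070 to 0.36.

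For density, Efna1 was 0.023 with DESeq2's size factors and in DESeq2, 0.020 without the libraries lacking Efnb2, and 0.0073 without libraries under 1000000 counts, where Efnb2 was -0.0051 and Sema3g -0.020. Sema3g was -0.0071 without the libraries lacking Efnb2, and Efnb2 -0.098 without those with a member near 0. Limma-voom gave 0.26 for Unc5b and 0.10 for Robo4. Efna1, Unc5b and Nr2f2 were 0.35, 0.15 and 0.13 on log2(TPM + 1) and 0.44, 0.19 and 0.16 on log2(TPM + 0.1). Without a sex term Efna1, Unc5b, Ephb4, Plxnd1 and Robo4 were 0.15, 0.051, 0.13, 0.017 and 0.062. In normal rats only Efnb2, Unc5b, Sema3g and Nr2f2 were -0.12, 0.10, -0.25 and 0.45, and with glucose as a covariate Unc5b was 0.12 and Nr2f2 0.013. With each rat left out Efna1 ranged from -0.15 to 0.082, Ephb4 from -0.19 to 0.053, Nr2f2 from -0.15 to 0.10, Sema3g from -0.076 to 0.17 and Unc5b from -0.23 to 0.11.

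For glucose, Gja4 was 0.0061 with upper-quartile scaling, 0.064 in normal rats only 0.020 with density as a covariate and 0.0055 without the libraries with a member near 0. Robo4 was -0.0065 without libraries under 1000000 counts, -0.0044 on log2 of glucose, -0.049 in normal rats only and -0.016 without the libraries lacking Efnb2, and Sema3g was -0.13 in normal rats only. With each rat left out Gja4 ranged from -0.22 to 0.037, Robo4 from -0.04 to 0.079 and Sema3g from -0.16 to 0.12. For males over females Unc5b was -0.19 in limma-voom, -0.067 on log2(TPM + 1) and -0.12 on log2(TPM + 0.1), and Efna1 was -0.53 and -0.71 on those TPM scales.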
